A study of Mus musculus with 2 samples.

Results

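The genes that copy DNA during S phase were followed in neutrophil cultures with and without miR-223, a microRNA that is abundant in granulocytes. The set held 49 genes, chosen by name for their part in DNA replication, of 18193 genes measured on the arrays. For 48 of them at least 1 probe set was named for that gene alone, and all 48 were expressed. Chaf1a had no probe set named for it and was not analysed. Each gene was read from its brightest probe set over both arrays, so the choice did not use the difference between genotypes.

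Both cultures came from bone marrow of male C57BL/6 mice, 1 from wild-type animals and 1 from mir-223 knockout animals. The labels do not give the number or age of the mice, or say whether marrow was pooled. Progenitors had grown for 6 days with G-CSF, a cytokine that drives granulocyte production, together with SCF, the ligand of Kit. Cycloheximide, a blocker of translation, was added to both at 100 ug/ml for the last 8 min, so no culture without it was compared. Each genotype was hybridized to 1 Affymetrix array, and differences therefore have no replicate check, no standard error and no test. They compare these 2 arrays only. A difference is the knockout value minus the wild-type value of log2(intensity + 16), a scale that shrinks the differences of dim genes. The intensity itself is the authors' linear value per probe set, and an intensity of 1 probe set cannot be read against that of another as an amount of RNA.

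No probe set of the array was annotated to the miR-223 gene, and the deletion was therefore not checked here. The 2 mature strands of miR-223 are encoded on chromosome X, at chrX:96242884-96242905 for the 3p strand and chrX:96242842-96242864 for the 5p strand (plus strand, GRCm38.p6, RefSeq). They are shown because the label of the knockout names this microRNA. Capitals mark the seed, bases 2 to 8, through which a microRNA pairs with its targets.

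mmu-miR-223-3p: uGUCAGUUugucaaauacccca

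mmu-miR-223-5p: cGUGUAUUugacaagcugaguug

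Replication starts at origins, where the origin recognition complex, Cdc6 and Cdt1 load the ring-shaped helicase made of Mcm2 to Mcm7. Cdc45 and the GINS complex turn it into a moving helicase, polymerase alpha with primase lays down primers, and polymerases delta and epsilon extend them on the sliding clamp Pcna. Many of these genes are transcribed by E2F factors late in G1, so their messages are high in dividing cells. Granulocyte precursors divide up to the myelocyte stage and then leave the cell cycle, so mature neutrophils carry little of this machinery.

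All 48 measured replication genes were expressed on both arrays, and their levels were close between genotypes. An expressed gene was one whose mean log2 value reached the median over all probe sets, which corresponds to an intensity of 33.9. The lowest member intensity was 132 and the highest 8519.6. The median member difference was -0.052 and the median over all 11006 expressed genes was -0.00037. Of the 48 members, 12 were higher and 36 lower on the knockout array, whereas 49.7% of all expressed genes were higher. On the brightest probe sets the SD was 0.114 across members and 0.182 across all expressed genes. On the second brightest expressed probe set, which 30 members had, the SD was 0.187 for members and 0.188 for all such genes, so the narrower spread was not repeated there. Among members, 44 (91.7%) lay within 0.2 of 0, a bound of 1.15-fold, against 79.6% of all expressed genes. Among other expressed genes within the members' 2 middle quartiles of mean signal, 81.6% lay within 0.2 and the SD was 0.174.

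Few members stood apart. Rrm2 and Pold1 were higher by 0.2 or more (2 of 48, with 12.1% of all expressed genes past that bound). Orc6 and Mcm8 were lower by 0.2 or more (2 of 48, with 8.27% of all expressed genes). With the poly-A spike-in controls set to 0, Orc6 stood at -0.070 and Mcm8 at -0.063. No member was lower by 0.2 with either kind of spike-in set to 0. Of all expressed genes, 1.44% were with the poly-A controls and 2.65% with the hybridization controls. On its brightest probe set no member was higher by 0.5 or more, where 1.13% of expressed genes lay. None was lower by 0.5 or more, where 0.591% lay. The other probe sets of Rrm2 gave 0.56 and 0.57. Without probe sets of the suffix classes s, x and a, called shared suffix classes here, Rrm2 stood at 0.56 and Pold1 at 0.062. Dut then stood at 0.41, read from its dim other probe set (98.3 and 136), because its brightest has the suffix a. On the brightest probe sets 4.17% of members lay past 0.2 on each side, below the shares of all genes. Each of these shares rests on 2 members. So few genes lay past 0.5 over all that 0 of 48 members there does not set the members apart. On the second brightest probe sets the share was not below on the lower side, where 4 of 30 members (13.3%) were lower by 0.2 or more. Of all genes with such a probe set, 7.59% were. Averaging the probe sets of each gene, 3 of 47 were lower by as much (6.38%), against 5.5%. No spread between replicate cultures was available. The spread among the expressed probe sets that share a gene, pooled over 5017 genes, had an SD of 0.144 within these arrays, and 40 of the 48 members (83.3%) lay inside it, as did 65.7% of all expressed genes.

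**Figure D1:**
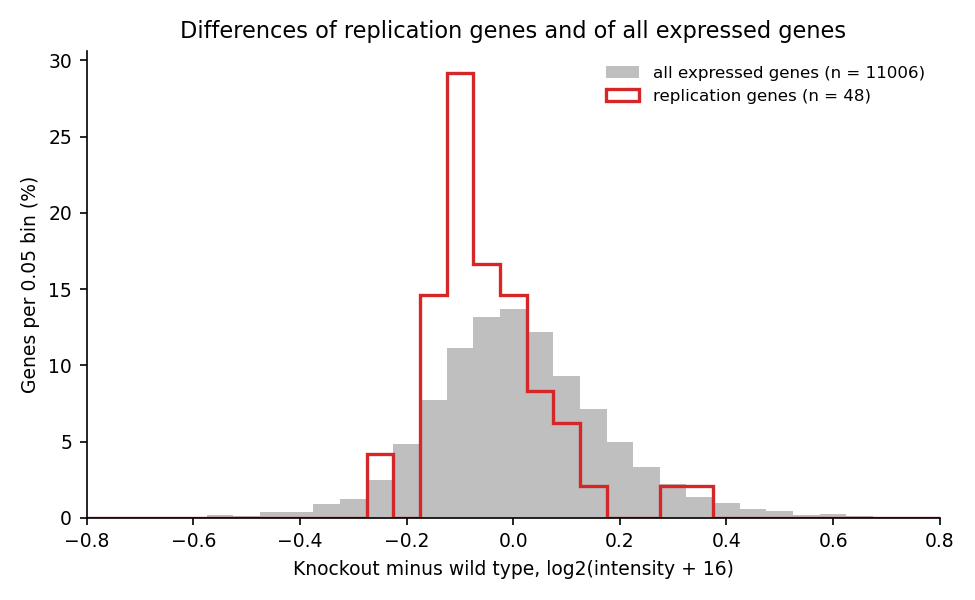
Distribution of knockout minus wild-type differences on the log2(intensity + 16) scale, in bins of 0.05 and as a percentage of genes, for 48 replication genes (red outline) and 11006 expressed genes (grey). The axis is limited to 0.8 on either side and leaves out a few expressed genes but no member; the members are packed between -0.24 and 0.36 and lean to the lower side.

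**Figure D2:**
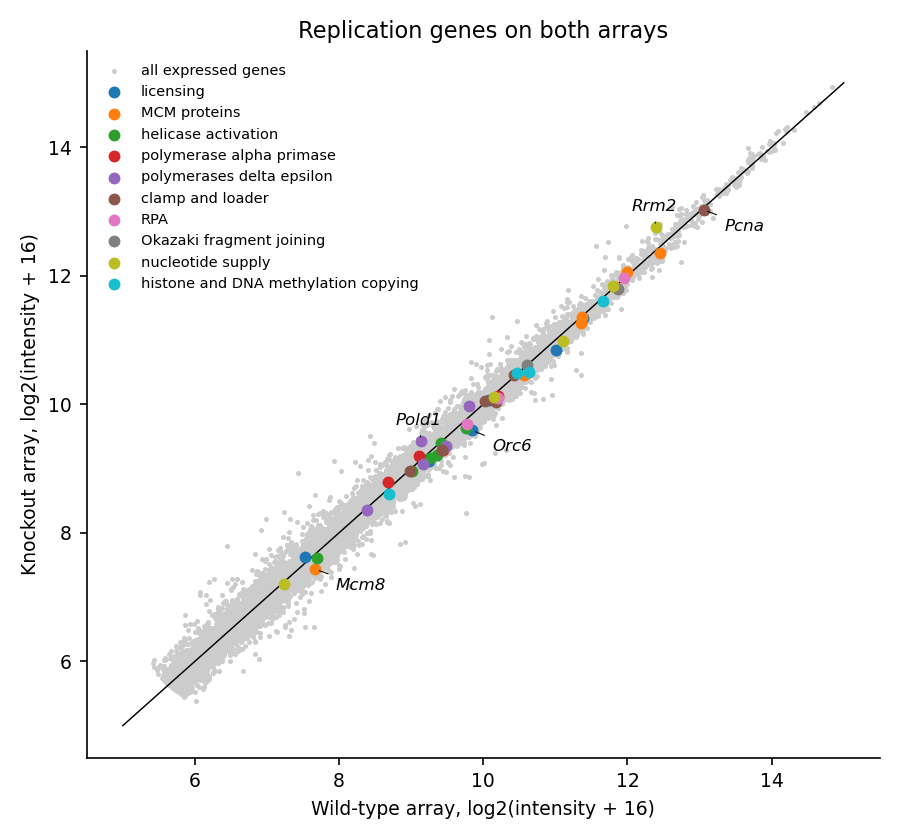
Level of each replication gene on the wild-type (x axis) and the knockout array (y axis), both as log2(intensity + 16), coloured by role over all expressed genes in grey. The members lie along the line of equal level, with Rrm2 and Pold1 above it and Orc6 and Mcm8 below it.

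The sign of these small differences depended on the level to which the arrays were set. The RNA and hybridization spike-ins were lower on the knockout array, with a median of -0.17 for 24 poly-A control probe sets and -0.11 for 18 hybridization control probe sets. Setting the poly-A controls to 0 moved the median of all expressed genes to 0.17 and that of the members to 0.12. Then 46 of 48 members stood above 0, as did 88.7% of all expressed genes. Relative to all genes the members stayed lower by the same amount, since such a shift is common to all. Whether the spike-ins or the deposited scale give the truer level was not tested.

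E2F-like motifs and CCAAT boxes were more frequent among the promoter windows of members than over all windows. Many of these genes are transcribed by E2F factors, so their choice was not independent of the E2F-like motif. RefSeq promoter windows, from 250 bases before to 50 bases after a gene's start, were at hand for 41 members (50 windows). The E2F-like motif was searched as TTTCGCGC, TTTGGCGC or TTTCCCGC and the CCAAT box as CCAAT, each on both strands. E2F matches on opposite strands can overlap and were counted separately. An E2F-like motif was found in 17 of the 50 windows (34.0%), against 1.84% of all 32851 windows and 2.41% of 21263 windows of protein-coding genes. A CCAAT box was found in 31 (62.0%), against 37.4% of all windows and 38.2% of those of protein-coding genes. Both stood together in 11 member windows (22%), against 0.776% of all windows and 1.03% of those of protein-coding genes. Member windows were also richer in G and C, at a median of 60.7%. It was 52.7% over all windows and 56.3% over those of protein-coding genes. The part of base composition in the motif shares was not tested. The 17 members with the E2F-like motif had a median difference of -0.017 between genotypes, and the 23 measured members without it had -0.076. With the motif 4 were higher and 13 lower, and without it 6 were higher and 17 lower. The gap between these medians was not tested.

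**Figure D3:**
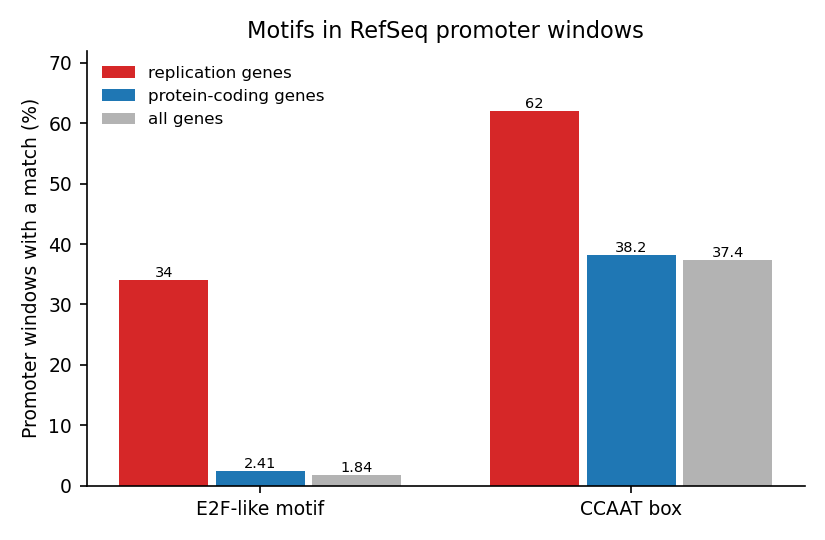
Percentage of RefSeq promoter windows of 300 bases (GRCm38.p6) with an E2F-like motif or a CCAAT box, for windows of replication genes (red, 50), of protein-coding genes (blue, 21263) and of all genes (grey, 32851). The E2F-like motif is in 34.0% of member windows and in 1.84% of all windows.

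The windows shown belong to Mcm6, which held the most E2F-like matches (3), and to the 4 members past the bound of 0.2. Matches of both motifs are in capitals, 5′ to 3′ on the strand of the gene (GRCm38.p6, RefSeq). In Mcm6 (chr1:128359656-128359955, minus strand) E2F-like matches began 110, 106 and 47 bases before the start, of which the first and second overlap, and ATTGG, the CCAAT box of the other strand, began 57 and 14 bases before it. In Rrm2 (chr12:24708004-24708303, plus strand) a CCAAT box began 50 bases before the start. In Pold1 (chr7:44548766-44549065, minus strand) an E2F-like match began 39 bases after the start. In Mcm8 (chr2:132815891-132816190, plus strand) ATTGG began 25 bases before and an E2F-like match 39 bases after the start. In Orc6 (chr8:85299382-85299681, plus strand) ATTGG began 54 bases before it. A match is a description of letters and shows no binding.

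Mcm6: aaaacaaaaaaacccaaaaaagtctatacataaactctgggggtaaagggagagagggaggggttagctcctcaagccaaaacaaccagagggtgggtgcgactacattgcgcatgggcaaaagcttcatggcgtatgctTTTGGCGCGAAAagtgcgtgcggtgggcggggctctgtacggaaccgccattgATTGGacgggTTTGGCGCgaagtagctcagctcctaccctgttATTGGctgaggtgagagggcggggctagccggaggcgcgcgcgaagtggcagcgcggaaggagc

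Rrm2: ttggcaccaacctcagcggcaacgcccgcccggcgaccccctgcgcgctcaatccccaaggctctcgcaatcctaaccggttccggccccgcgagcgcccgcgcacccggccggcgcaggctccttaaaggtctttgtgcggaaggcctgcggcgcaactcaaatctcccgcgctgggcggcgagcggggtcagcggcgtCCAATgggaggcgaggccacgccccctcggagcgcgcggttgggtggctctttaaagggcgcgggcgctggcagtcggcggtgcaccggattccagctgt

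Pold1: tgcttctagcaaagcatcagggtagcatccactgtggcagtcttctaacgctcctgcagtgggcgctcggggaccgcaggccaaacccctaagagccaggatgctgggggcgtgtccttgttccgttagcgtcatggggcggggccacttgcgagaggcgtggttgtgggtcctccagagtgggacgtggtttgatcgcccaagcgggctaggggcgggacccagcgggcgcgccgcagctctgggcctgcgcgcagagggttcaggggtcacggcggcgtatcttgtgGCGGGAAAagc

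Mcm8: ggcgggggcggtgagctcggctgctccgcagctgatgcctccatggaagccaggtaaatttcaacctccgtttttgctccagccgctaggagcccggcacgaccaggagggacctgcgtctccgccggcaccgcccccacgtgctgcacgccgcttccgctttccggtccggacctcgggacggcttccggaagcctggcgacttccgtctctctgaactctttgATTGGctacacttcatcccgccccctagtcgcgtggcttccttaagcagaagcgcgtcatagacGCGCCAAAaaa

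Orc6: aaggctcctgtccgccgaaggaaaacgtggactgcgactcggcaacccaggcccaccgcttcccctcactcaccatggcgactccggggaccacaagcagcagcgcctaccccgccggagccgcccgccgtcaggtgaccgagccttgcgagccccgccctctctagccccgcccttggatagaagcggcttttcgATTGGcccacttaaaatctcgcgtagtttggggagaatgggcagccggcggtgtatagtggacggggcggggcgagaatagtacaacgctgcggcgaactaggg

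Licensing genes, which prepare origins for firing, were mostly a little lower, 5 of 6, with a median of -0.084. Orc6, the smallest subunit of the origin recognition complex, had intensities of 900.5 in wild type and 758 in the knockout, a difference of -0.24 and the lowest among all members. Its 1 probe set offered no second reading. Gmnn encodes geminin, which binds Cdt1 and blocks a second round of loading, and gave 2039 and 1815 (-0.17). Orc2 stood at 593 and 541 (-0.13), but its 3 probe sets ran from -0.26 to 0.16. Orc1, the ATPase subunit, was the higher one of the group, at 168 and 182 (0.11), and its other probe set gave -0.30. The loaders Cdc6 (1062 and 1053, -0.012) and Cdt1 (2656 and 2586, -0.038) were nearly equal on both arrays. Beside Orc6, no licensing gene reached 0.2 on its brightest probe set.

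None of the core MCM ring subunits differed by 0.2 on its brightest probe set. Mcm2 gave 1497 and 1393 (-0.10), Mcm4 gave 2614 and 2455 (-0.090), and Mcm7 gave 5562 and 5245 (-0.084). Mcm3 (2627 and 2619, -0.0047), Mcm6 (3616 and 3594, -0.0086) and Mcm5 (4081 and 4245, 0.057) were closer still to equal. These subunits of 1 ring therefore lay between -0.10 and 0.057 on their brightest probe sets. Only for Mcm7 did all expressed probe sets have 1 sign, from -0.090 to -0.00014 over 4 of them. The second probe set of Mcm6 gave 0.21, and those of Mcm5 ran from -0.14 to 0.10. Mcm8, a relative that acts in homologous recombination rather than in the ring, gave 188 and 157 on its 1 probe set (-0.24).

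Activators of the helicase were lower in all 6 cases, with a median of -0.092, although none reached 0.2 on its brightest probe set. The GINS subunits were Gins2 at 639 and 577 (-0.14), Gins1 at 854 and 777 (-0.13), Gins3 at 191 and 179.7 (-0.084) and Gins4 at 669 and 657 (-0.025). Cdc45, their partner in the active helicase, stood at 498 and 482 (-0.047), and at -0.27 on a dimmer probe set. Mcm10, which helps the helicase to start moving, stood at 600.4 and 559 (-0.100). On the deposited scale no expressed probe set of this role was higher on the knockout array. With the poly-A controls set to 0, all 6 genes stood above 0 on their brightest probe sets, from 0.030 (Gins2) to 0.15 (Gins4).

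Primase and the polymerases were divided. In the polymerase alpha complex the catalytic subunit Pola1 gave 680.4 and 612 (-0.15) and the primase subunit Prim1 gave 1167 and 1107 (-0.076). Their partners Pola2, at 393 and 425 (0.11), and Prim2, at 536 and 571 (0.088), were higher, and Prim2 gave -0.23 on its second probe set. In polymerase delta, the enzyme of the lagging strand, the catalytic subunit Pold1 was higher, at 547 and 672 (0.29). Its other probe set gave 415 and 434 (0.062), so the size of this difference was not repeated. The brightest probe set of Pold1 has the suffix x, which marks sequence shared with other transcripts, and the other does not. Pold2, the accessory subunit, gave 877 and 988 on its 1 probe set (0.17), and Pold3 gave 559 and 520.5 (-0.10). The 3 probe sets of Pold3 ran from -0.10 to 0.0066. The polymerase epsilon genes Pole (321 and 312, -0.038) and Pole2 (699 and 639.9, -0.12), which serve the leading strand, were lower. On the deposited scale and the brightest probe sets, subunits of the same enzyme thus differed in sign in both polymerase alpha and polymerase delta. With the poly-A controls set to 0 they did not. All these subunits then stood above 0, from 0.023 (Pola1) to 0.46 (Pold1).

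On their brightest probe sets the sliding clamp and its loader were near equal, with 2 of 6 higher and a median of -0.024. Pcna, the clamp that tethers the polymerases, gave 8519.6 and 8331 (-0.032). Of the loader subunits, Rfc1 (675 and 606, -0.15) and Rfc5 (1141 and 1034, -0.14) were lower, and Rfc2 (1359 and 1389, 0.031), Rfc3 (491 and 485, -0.017) and Rfc4 (1027 and 1042, 0.021) were within 0.04 of 0. The 3 probe sets of Rfc1 ran from -0.15 to 0.17, those of Rfc2 ran from -0.055 to 0.041, and Rfc4 gave -0.17 on its other probe set. The single-strand binding proteins Rpa1 (3961 and 3979, 0.0066), Rpa2 (859.8 and 812, -0.082) and Rpa3 (1159.7 and 1077, -0.11) were likewise close. Rpa2 gave 0.17 on its other probe set. Fen1, the nuclease that trims Okazaki fragments, stood at 3741 and 3531 (-0.083), and at 0.086 on its other probe set. Lig1, the ligase that joins these fragments, stood at 1551.5 and 1547 (-0.0044).

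Nucleotide supply held the largest difference of the set. Rrm2, the small subunit of ribonucleotide reductase that limits dNTP synthesis in S phase, gave 5362 in wild type and 6884 in the knockout (0.36). Its 2 other probe sets gave 3735 and 5502 (0.56) and 2547 and 3801 (0.57), so all 3 were higher on the knockout array. The brightest one has the suffix x, which marks sequence shared with other transcripts, and the 2 others do not. Of all expressed genes, 96.7% had a lower difference than Rrm2. Its large partner Rrm1 gave 3564 and 3669 (0.042), and 2032 and 2299 (0.18) on a second probe set. The subunits of this enzyme thus stood at 0.36 and 0.042, and no test of that gap was possible.

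The other nucleotide genes were lower by little. Tyms, which makes dTMP, stood at 134 and 132 (-0.026), and 3 further probe sets of it were not expressed. Tk1, the S phase thymidine kinase, stood at 1119 and 1093 (-0.033). Dut, which removes dUTP, gave 2182 and 2018 (-0.11) on its brightest probe set and 98.3 and 136 (0.41) on the other. For Dut the direction thus differed between probe sets by more than the largest member difference.

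Genes that copy chromatin along with DNA were also close. Slbp, which binds histone messages, gave 3235 and 3107 (-0.058), and 0.10 on a dimmer expressed probe set. Chaf1b, a subunit of the histone chaperone CAF-1, gave 399 and 374.5 (-0.086). Uhrf1, which recognizes hemimethylated DNA, gave 1399 and 1425 (0.026), and Dnmt1, the methyltransferase it recruits, gave 1567 and 1440.1 (-0.12). The 3 probe sets of Dnmt1 ran from -0.13 to 0.0016.

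**Figure D4:**
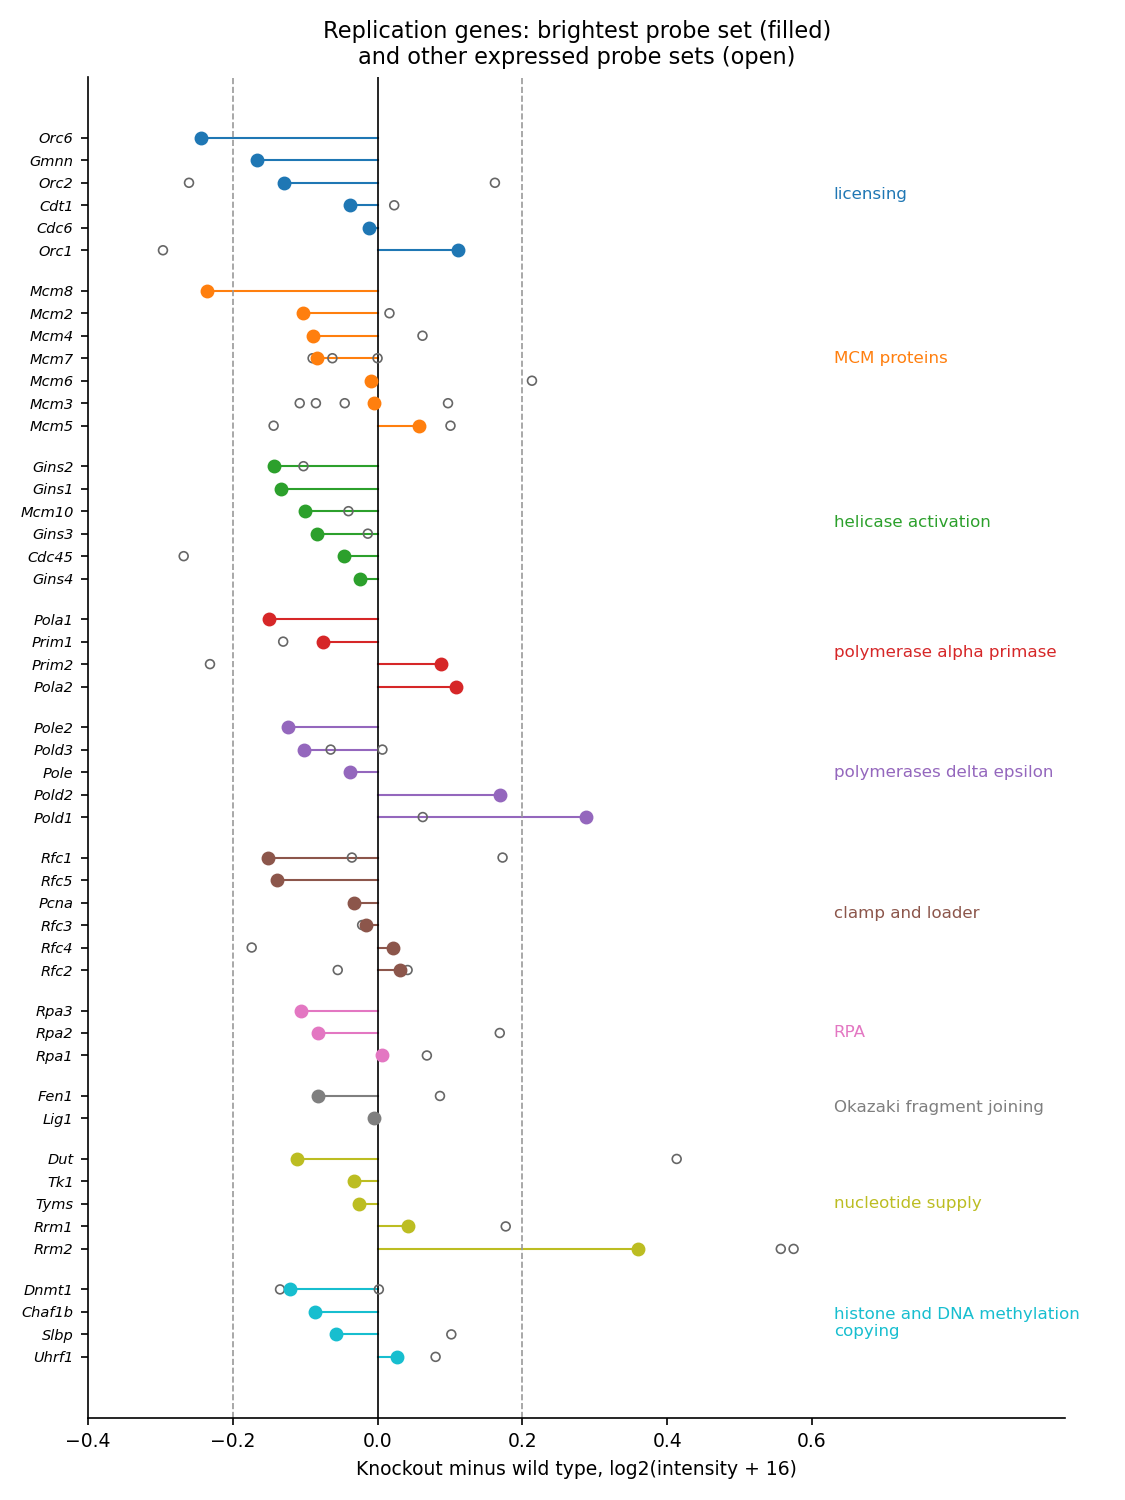
Knockout minus wild-type difference of each replication gene on the log2(intensity + 16) scale, grouped by role. Filled points are the brightest probe set, open points other expressed probe sets of the same gene, and dashed lines mark 0.2 on either side; 18 of 30 members with several expressed probe sets have them on both sides of 0.

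Probe sets of the same member often gave opposite signs. Of 30 members with at least 2 expressed probe sets, 18 (60.0%) had both signs, against 47.5% of 5017 genes over all. The second brightest probe sets of these 30 members had a median of 0.0090, with 16 higher and 14 lower, while their brightest had -0.052, with 10 higher and 20 lower. Over all genes with a second expressed probe set the medians were 0.034 for the second and 0.0034 for the brightest. The lean of the members to the lower side was thus not repeated in count on their second probe sets, whose median was -0.025 relative to all genes. Of the 18 members with only 1 expressed probe set, 16 were lower and 2 higher, and 49.0% of all such genes were higher. Averaging the probe sets of each gene, 33 of 47 members were lower. The sign agreed between brightest and second for 16 of the 30 members (53.3%) and for 64.6% of all such genes. Pold1, Rrm1, Rrm2, Rpa1 and Uhrf1 were higher on all their expressed probe sets, and Cdc45, Gins2, Gins3, Mcm7, Mcm10, Prim1 and Rfc3 lower.

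Other genes of the pathway had similar small differences. Of 24 further replication genes, 17 were lower and 7 higher (median -0.038). The largest differences were those of Pold4, the smallest subunit of polymerase delta (0.26), Rnaseh2b, a subunit of the nuclease that removes ribonucleotides from DNA (-0.26), Mcm9, the partner of Mcm8 (0.25), and Wdhd1, which links primase to the helicase (-0.21). Of 13 measured genes of nucleotide supply and chromatin assembly, 9 were lower and 4 higher (median -0.081). Here the salvage kinase Dck gave 1531 and 2114 (0.46) and the mitochondrial thymidine kinase Tk2 gave 181 and 234 (0.34), while the histone chaperone Nasp (-0.26) and the folate enzyme Shmt1 (-0.22) were lower. Dck and Tk2 were the 2 genes of that list higher by 0.2 or more.

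Regulators of entry into S phase were balanced, with 7 of 15 higher, 7 lower and a median of 0. The largest differences were those of the cyclin-dependent kinase inhibitor Cdkn1a (-0.34), the phosphatase Cdc25a (-0.31), the kinase Cdk4 (-0.22) and the inhibitor Cdkn1b (0.21). Of 9 replication checkpoint genes, 8 were lower, with a median of -0.11, led by the clamp subunit Hus1 (-0.23), the kinase Chek1 (-0.20), Rad1 (-0.15) and Atrip (-0.13). Mitosis genes leaned the same way as the members, with 15 of 19 lower and a median of -0.077. Cdk1 (-0.21), the motor Cenpe (-0.18) and the activator Cdc20 (-0.16) were lower and the spindle checkpoint protein Mad2l1 (0.18) was higher. No gene of these 5 lists differed by 0.5 or more. These lists were described by count and median only, and the members were not shown to differ from them.

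**Figure D5:**
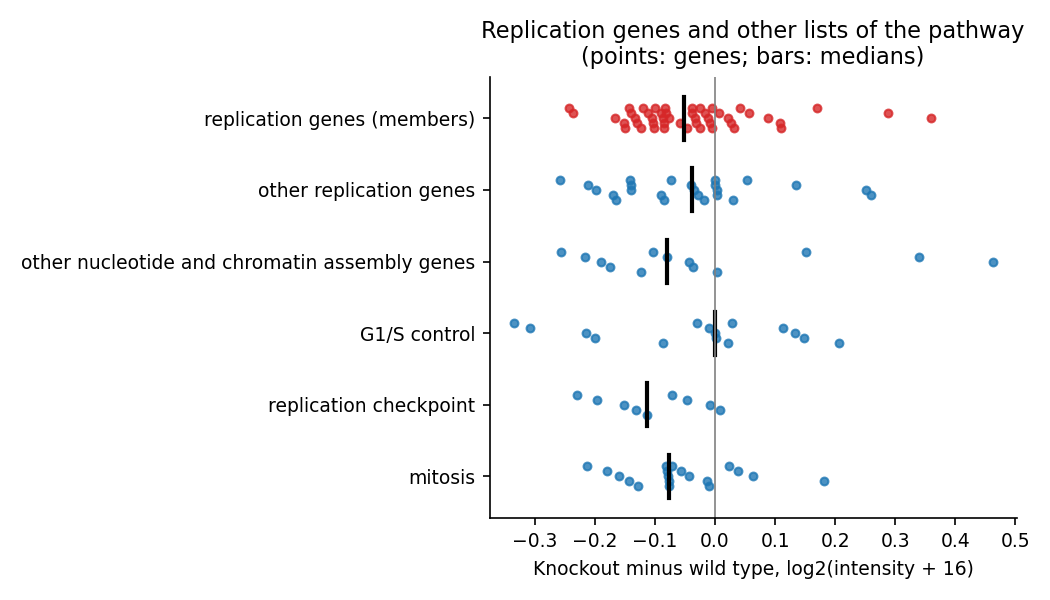
Knockout minus wild-type differences on the log2(intensity + 16) scale for 48 replication genes (red) and 5 further lists of the pathway (blue). Points are genes, each read from its brightest probe set, and black bars are medians. The members' median is -0.052 and those of the other lists run from -0.11 to 0. No point is past 0.5 on either side.

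The cultures carried markers of the neutrophil lineage, and markers of other blood cells moved between the arrays. How mature the cells were was not tested. The neutrophil genes S100a9 (29262 and 31305) and S100a8 (25757 and 26320.3) were very bright on both, and 13 of 14 measured neutrophil markers were higher on the knockout array, with a median of 0.14 and a summed intensity of 193286 against 204628. Progenitor markers were higher for 6 of 9 (median 0.16, sums of 8133 and 8869.7). Mast cell and basophil markers were lower for 10 of 10 (median -0.53, sums of 6709.9 and 4684). Eosinophil markers were lower for 3 of 4 (-0.53, sums of 1192 and 968), but not Siglecf (0.92). Megakaryocyte markers were lower for 6 of 7 (-0.46, sums of 2020.2 and 1299), including Ppbp (-1.06) but not Itgb3 (1.34). Monocyte and macrophage markers were higher for 8 of 10 (0.22, sums of 7167 and 8388), with Apoe at 1.51. The 2 lower ones were Cx3cr1 (-0.60) and Adgre1 (-0.016). Erythroid markers were lower for 3 of 4 (-0.14, sums of 5049 and 4684), B cell markers higher for 2 of 3 (0.43, sums of 829 and 1252), and T and NK cell markers divided 1 to 1 (-0.17, sums of 933 and 1223). Sums are over expressed markers and can rest on 1 bright probe set, such as Nkg7 (847 and 1181) among the T and NK cell markers and Tfrc (4817 and 4464) among the erythroid ones, and Kit and Gata2 stand in both the progenitor and the mast cell list. No marker was at 0. The part of these cells in the differences of the replication genes was not tested, and in such bulk RNA fewer cells of a type and less RNA per cell cannot be told apart.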

How the data were processed

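Total RNA of 1 wild-type and 1 knockout culture was measured on 2 arrays, with genotypes from the labels. Per the labels' protocols, RNA was extracted with Trizol and labelled as biotinylated cRNA. The deposited values are the authors' linear intensities, 1 for each probe set on each array; their summarization and normalization were not given in the sources used here. Of 45101 probe sets, 34945 were named for 1 gene by the platform annotation, and 105 of these belonged to members. Values were taken as deposited, as log2(intensity + 16), and a gene took its brightest probe set by mean log2 value. Expressed genes had a mean of at least 5.64. With 1 array per genotype no test was run. Bounds of 0.2 and 0.5 on the log2 scale were used for counts.

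Members and lists were chosen with earlier results of these data known. Every member could be named. Of other pathway lists, up to 4 genes with the largest differences and any at 0.5 or more could be named. Of markers, the 2 brightest neutrophil genes and any at 1 or more could be named. A few further markers were named where they ran against their list or weighed on its sum. Promoters and microRNAs came from RefSeq tables (GRCm38.p6), matched by symbol. A search for PCNA-binding motifs in member proteins was planned but not run, since protein sequences were not used here. Computation used Python 3.11.15 with pandas 2.3.3 and statsmodels 0.14.6, and was tested on simulated data. Alternatives were other pseudocounts, centring, normalization, expression filters and probe set rules.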

Additional observations from a re-analysis of the deposited data

How the results depend on the processing

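The median member difference stayed between -0.073 (quantile normalization) and -0.032 (mean of a gene's probe sets) under pseudocounts of 1 and 64, median centring, quantile normalization, loess, other expression filters, the mean of probe sets and the removal of probe sets of shared suffix classes. The number of members higher on the knockout array stayed between 11 and 14. The median changed sign with centring on hybridization controls (0.056) and on poly-A controls (0.12). Both settings shift all genes alike, and the change follows from their construction. With hybridization controls 36 members were higher, 5 of them by 0.2 or more, and 0 lower by as much. Over all expressed genes these shares were 78.0%, 27.8% and 2.65%. With poly-A controls 46 members were higher, 9 by 0.2 or more, and 0 lower by as much. Here the shares over all expressed genes were 88.7%, 42.8% and 1.44%. A pseudocount of 64 and a filter at the 75th percentile each left 1 member lower by 0.2 or more, and the mean of probe sets left 1 higher. Chosen after seeing the data, the second brightest probe set gave a median of 0.0090 and 4 members lower by 0.2 or more, and leaving out members with probe sets of both signs gave 7 higher of 30 and a median of -0.042. The SD of member differences ran from 0.107 to 0.187. Over all probe sets, 23 measured members had both signs, against 18 over expressed ones. Of single members, 9 kept their sign in every setting that gave them a value, among them Rrm2 (0.33 to 0.56), Pold1 (0.062 to 0.46), Pold2 (0.15 to 0.34), Orc6 (-0.26 to -0.070) and Mcm8 (-0.26 to -0.063). Pold2, Orc6 and Mcm8 have 1 probe set each, so the probe set rules could not change their values. Expression filters cannot change a sign either. Rfc2 is also among the 9, although its expressed probe sets ran from -0.055 to 0.041. No paired analysis was possible because each genotype has 1 array. The precision of all values is limited by the number of arrays.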
